A study of Mus musculus with 17 samples.

Results

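The 50 genes described here encode proteins of the cell cycle and of DNA replication. They were taken by name from the deposited table, which lists 53278 gene symbols, and all 50 were found in it. By the stage at which they act, 20 were placed in S phase, 26 in G2 and mitosis (G2/M) and 3 in G1, and Stmn1 was placed in none of these. All 50 passed the filter used for testing, a TPM value (the length-corrected share of a library's transcripts that a gene takes) of at least 1 in at least 2 libraries, as did 15066 genes in all.

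RNA came from small-intestinal epithelial cells sorted as EpCAM+ CD45- Ter119- from Igha -/+ pups of the C57BL/6 strain, each carrying 1 working copy of the gene for the IgA heavy chain. The dam that nursed them was C57BL/6 (the B6 dam) or Igha -/- and thus unable to make IgA (the IgA-null dam). Pups were 14, 24 or 42 days old when the cells were sorted. Each of the 6 groups had 3 libraries, except B6 dam at day 24 with 2. Litters are not given in the labels, so the p-values measure the spread between these libraries only. The sample names carry dates, which are not the same for both dams at day 14 or at day 24, nor between ages within a dam except from day 24 to 42 with the IgA-null dam. Wherever they differ, date and comparison cannot be told apart. The names also begin with F in every IgA-null dam library and with M in every B6 dam library. The sample titles do not say what these letters stand for, and letter and dam cannot be told apart at any age.

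Reads recovered from TPM came to 8242876 to 17637908 per library, summed over the 47584 of 53278 symbols for which they could be recovered. A single short gene model, Gm23935, took 40.2% to 61.9% of TPM, and the share left for genes other than it and the mitochondrial ones ran from 10.3% to 30.9%. TPM was therefore divided by a median-of-ratios size factor for each library (0.480 to 1.84), and all levels below are these scaled TPM. Epcam, the epithelial surface protein used in the sort, stood at 153 to 500.0 deposited TPM, and Ptprc, which encodes CD45, at 0.806 or less. Summed scaled TPM of 15 leukocyte markers was 3.87 to 12.98 at day 14, 13.8 to 61.4 at day 24 and 51.4 to 122 at day 42, with 5 of the 15 at 0 in every library of IgA-null dam day 14. That of 9 stromal and endothelial markers was at most 0.479. That of 6 erythroid markers ran from 1.34 to 66.7 (replicate 2) in the day 24 libraries of the IgA-null dam, and was at most 3.21 in every other group, and Ter119, used in the sort, is an erythroid surface marker.

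The intestinal epithelium renews itself from dividing cells in the crypts, where stem cells and their rapidly cycling descendants lie, while the differentiated cells above have left the cell cycle. Genes of DNA synthesis are switched on at the G1/S boundary largely by E2F factors, which bind promoter sites such as TTTCGCGC and TTTGGCGC. Genes of G2 and mitosis come on later, through the MuvB complex with B-Myb and FoxM1, and many of their promoters carry a cell cycle homology region (CHR) together with CCAAT boxes bound by NF-Y. In bulk RNA, fewer dividing cells and less RNA of these genes per cell cannot be told apart.

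These promoter features differed between the classes of members, and the windows of 5 members show the letters in question. RefSeq promoter windows of 300 bases (250 before to 50 after the start, build GRCm38.p6) were found for 39 of the 50 members. The CHR was searched as TTTGAA or TTTAAA, the CCAAT box as CCAAT, and the E2F site as TTTCGCGC or TTTGGCGC, each on both strands and with overlaps allowed. Shown are 3 G2/M and 2 S phase members that held their class's motif, taken by the smallest p in the comparison with the most members called. The rule took 3 per class, but an S phase member whose E2F match lies more than 30 bases past the start is not shown. Each run is 150 bases, 5′ to 3′ on the gene's own strand. Capitals mark CHR and CCAAT matches in the G2/M genes and E2F matches in the S phase genes, on either strand, and CCAAT matches of the S phase genes stay in lower case. The Ccnf window lies at chr17:24251380-24251529 on the minus strand, Top2a at chr11:99024160-99024309 (minus), Cenpf at chr1:189688057-189688206 (minus), Mcm6 at chr1:128359676-128359825 (minus) and Mcm5 at chr8:75109329-75109478 (plus). The first 4 windows end 30 bases past the start, and that of Mcm5 ends before it.
Ccnf: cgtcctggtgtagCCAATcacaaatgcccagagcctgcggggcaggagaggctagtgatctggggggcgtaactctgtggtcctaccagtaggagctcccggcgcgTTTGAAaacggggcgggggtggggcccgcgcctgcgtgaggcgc
Top2a: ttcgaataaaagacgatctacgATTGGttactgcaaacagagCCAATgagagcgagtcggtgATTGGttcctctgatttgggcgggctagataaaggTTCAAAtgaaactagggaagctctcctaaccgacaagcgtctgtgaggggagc
Cenpf: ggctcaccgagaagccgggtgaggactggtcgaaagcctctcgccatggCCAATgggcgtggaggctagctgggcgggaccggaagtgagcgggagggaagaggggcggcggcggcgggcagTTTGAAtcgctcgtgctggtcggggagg
Mcm6: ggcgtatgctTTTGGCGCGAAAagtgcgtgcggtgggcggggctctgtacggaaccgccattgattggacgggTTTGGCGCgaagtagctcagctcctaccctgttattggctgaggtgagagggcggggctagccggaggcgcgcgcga
Mcm5: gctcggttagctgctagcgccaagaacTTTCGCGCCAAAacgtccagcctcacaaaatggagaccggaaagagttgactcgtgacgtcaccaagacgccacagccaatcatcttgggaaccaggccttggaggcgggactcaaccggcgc

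A CHR match was present in 19 of 21 G2/M windows (90.5%), in 6 of 17 S phase windows (35.3%) and in 27.8% of the 27025 windows of all genes. CCAAT was likewise present in 19 of 21 G2/M windows, against 9 of 17 in S phase (52.9%) and 37.9% of all genes. Both motifs stood together in 18 G2/M windows (85.7%), in 3 S phase windows (17.6%) and in 10.9% of all windows. The E2F letters were found in 5 S phase windows (29.4%), those of Mcm3, Mcm5, Mcm6, Mcm7 and Cdt1, and in 1 G2/M window, that of Cdk1, against 0.833% of all windows. Bub1 and Nusap1 were the G2/M members with a window and no CHR match. A match is a description of these letters and not evidence of binding.

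**Figure D1:**
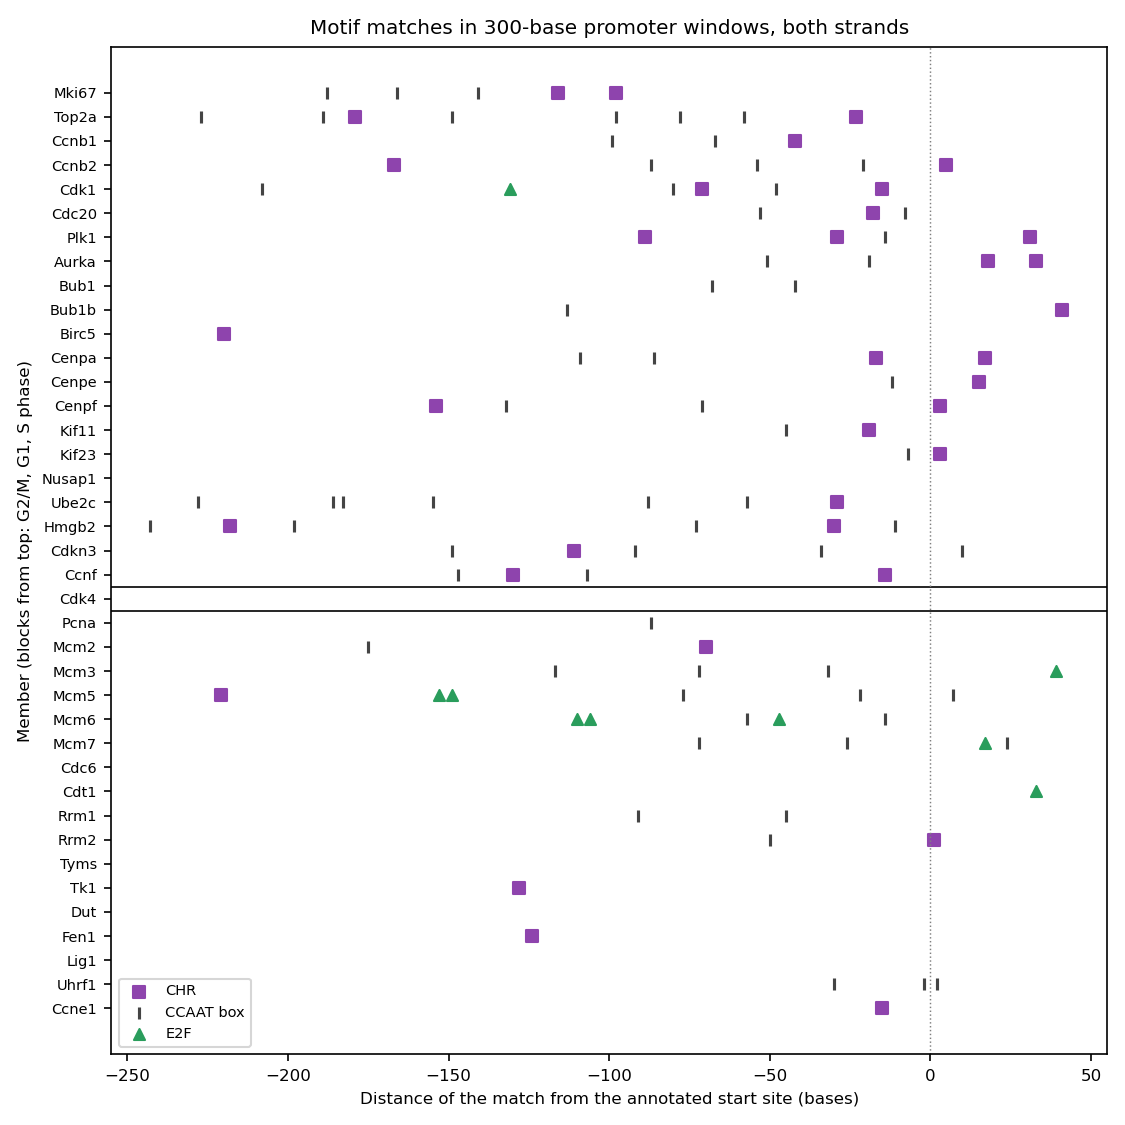
Positions of CHR, CCAAT and E2F matches in the promoter windows of the members, against distance from the annotated start site in bases, with 1 line per member. CHR and CCAAT matches fill the G2/M block, where 18 of 21 windows hold both, and the E2F matches lie in 5 S phase windows and in that of Cdk1.

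Levels of the members spanned a wide range. Among the G2/M genes the highest median over the 17 libraries was that of Hmgb2, a chromatin protein, at 41.7 scaled TPM, followed by Mki67, the coat of mitotic chromosomes, at 36.1 and Top2a, the topoisomerase that untangles sister chromatids, at 21.0. The lowest were Cdkn3 at 1.92 and Cdc25c at 1.96. In S phase the median was highest for Mcm6 at 21.1 and Lig1, the replicative DNA ligase, at 18.4, and lowest for Fen1, the nuclease that trims Okazaki fragments, at 1.14. Reads behind these values ran from 15 to 78 per library for Fen1 and from 2671 to 8818 for Mki67. Stmn1, which destabilises microtubules, had the highest median of all members at 48.0. Exons of 19 members overlap another annotated gene, among them Top2a, Mcm7, Ccnd2 and Cdk4, and whether counting used the strand is not given in the sources used here.

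**Figure D2:**
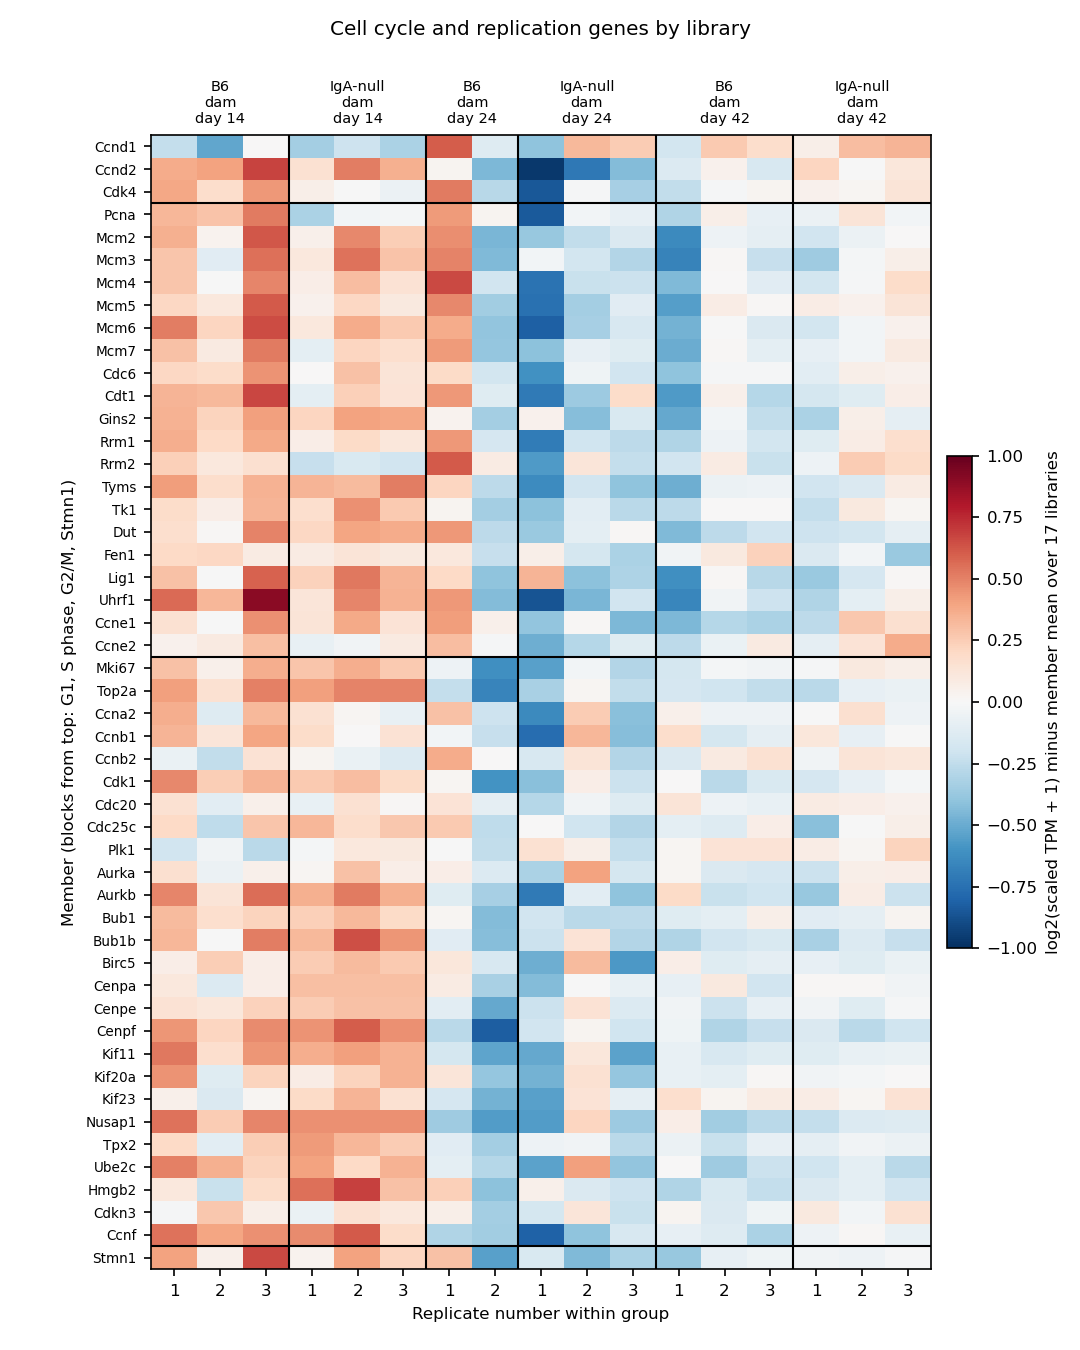
Each cell is log2(scaled TPM + 1) of 1 member in 1 library minus that member's mean over the 17 libraries, with members in rows by class and libraries in columns by group. Most members are above their mean in the 6 libraries of day 14 and below it at day 24, apart from the following. S phase members stay high in B6 dam day 24 replicate 1, and many G2/M members are above their mean in IgA-null dam day 24 replicate 2.

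From day 14 to day 24 many mitotic genes fell with both dams. With the B6 dam 12 of the 50 members were lower and none higher, where 5.91% of all genes tested were lower and 7.93% higher (limma, adjusted p under 0.05). These were 11 of 26 G2/M members and Ccnd2, and no S phase member passed. With the IgA-null dam, 20 members were lower and none higher, against 8.28% lower and 8.35% higher among all genes. They were 13 of 26 G2/M members, 6 of 20 S phase members and Ccnd2. The median log2 fold change with the B6 dam was -0.38 over the G2/M members and -0.26 over the S phase members. The corresponding IgA-null dam medians were -0.46 and -0.49, and over all genes tested they were 0.01 and -0.02.

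Top2a, on chromosome 11 (98992943 to 99024189, minus strand, GENCODE M21 on GRCm38), separated day 14 from the later ages. Pups of the B6 dam had Top2a at 30.1, 25.0 and 32.1 scaled TPM at day 14, 18.8 and 13.8 at day 24 and 19.8, 19.4 and 18.8 at day 42. Pups of the IgA-null dam had 30.1, 32.0 and 32.0 at day 14, 17.7, 22.8 and 18.7 at day 24 and 18.4, 21.0 and 21.3 at day 42. Every library of day 14 was above every library of the later ages, and the later ages overlapped. The fall to day 24 was -0.81 (log2, SE 0.15, adjusted p = 0.0026) with the B6 dam and -0.65 (SE 0.13, adjusted p = 0.0057) with the IgA-null dam.

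Cenpf, a large protein of the outer kinetochore, followed the same course at a lower level. Its values with the B6 dam were 7.78, 6.49 and 7.94 scaled TPM at day 14, 4.37 and 2.65 at day 24 and 5.26, 4.24 and 4.52 at day 42. The IgA-null dam values were 7.79, 8.80 and 7.88 at day 14, 4.64, 5.58 and 4.62 at day 24 and 4.85, 4.35 and 4.64 at day 42. Day 14 was again the only age with libraries above 6 scaled TPM. The change to day 24 was -0.92 (SE 0.15, adjusted p = 0.0012) with the B6 dam and -0.62 (SE 0.13, adjusted p = 0.0076) with the IgA-null dam.

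Ccnf encodes cyclin F, the substrate-binding part of a ubiquitin ligase active in G2. It stood at 6.24, 5.52 and 5.82 scaled TPM at day 14, 3.02 and 2.88 at day 24 and 3.69, 3.54 and 2.98 at day 42 with the B6 dam. In pups of the IgA-null dam Ccnf stood at 5.87, 6.56 and 4.63 at day 14, 1.83, 2.75 and 3.42 at day 24 and 3.79, 3.99 and 3.71 at day 42. Every library of day 14 was above every library of the later ages with either dam. Its change to day 24 was -0.79 (SE 0.16, adjusted p = 0.0056) and -0.88 (SE 0.14, adjusted p = 0.0017) with the respective dams.

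Mki67, whose protein is the usual stain for cycling cells, also fell with both dams. Its B6 dam values were 44.9, 37.9 and 47.1 scaled TPM at day 14, 35.2 and 23.5 at day 24 and 32.1, 36.0 and 35.5 at day 42. Its IgA-null dam values were 44.4, 47.1 and 44.0 at day 14, 24.6, 35.7 and 29.6 at day 24 and 36.1, 39.0 and 38.0 at day 42. The day 24 libraries lay below those of day 14 with either dam, and most libraries of day 42 lay between. The fall to day 24 was -0.57 (adjusted p = 0.041) with the B6 dam and -0.59 (adjusted p = 0.02) with the IgA-null dam.

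The other mitotic members that fell with the B6 dam were Nusap1, a spindle protein (-0.88), Kif11, the motor that separates the spindle poles (-0.73), Cdk1, the kinase that drives entry into mitosis (-0.65), Cenpe, a kinetochore motor (-0.48), the checkpoint genes Bub1 (-0.44) and Bub1b (-0.55), and Aurkb, a kinase of the chromosomal passenger complex (-0.62), as log2 fold changes. Nusap1 (-0.69), Kif11 (-0.69), Cenpe (-0.35), Bub1 (-0.49), Bub1b (-0.59) and Aurkb (-0.82) also fell with the IgA-null dam. Tpx2, which builds the spindle (-0.45), Hmgb2 (-0.61) and Cenpa, the centromeric histone (-0.47), passed there and not with the B6 dam, where they were at -0.34, -0.11 and -0.13. Whether these changes differed between the dams was not tested for this interval alone. The joint test of the dam difference over all ages, given below, called no member. The mitotic kinase Plk1 did not pass with either dam (0.04, adjusted p = 0.87, and -0.07, adjusted p = 0.72), nor did Cdc20, an activator of the anaphase-promoting complex (-0.01 and -0.18).

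The number of members called with the B6 dam depended on single libraries. It was 3 without replicate 2 of day 24, 20 without replicate 1 of day 24, and 6 without replicate 1 or 3 of day 14. For the IgA-null dam the number was 13, 10 and 13 without day 14 replicate 1, 2 and 3 in turn. Cenpf, Top2a and Ccnf were the 3 of 12 members with the B6 dam that kept their call whichever library was left out, and 9 of 20 did so with the IgA-null dam.

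Among the S phase genes, falls to day 24 passed the test with the IgA-null dam in 3 of the 5 members that supply nucleotides. Tyms, which makes thymidylate, stood at 4.64, 4.58 and 5.38 scaled TPM at day 14, 1.89, 2.93 and 2.37 at day 24 and 2.92, 3.05 and 3.74 at day 42 with the IgA-null dam. The B6 dam values were 4.98, 4.06 and 4.69 at day 14, 4.19 and 2.73 at day 24 and 2.18, 3.29 and 3.32 at day 42. All IgA-null dam libraries of day 14 were above all later ones, while B6 dam day 24 replicate 1 lay within the range of day 14. The change to day 24 was -0.80 (SE 0.16, adjusted p = 0.0054) with the IgA-null dam and -0.34 (SE 0.18, adjusted p = 0.23) with the B6 dam. Tk1, which salvages thymidine, changed by -0.56 (adjusted p = 0.014) and -0.35 (adjusted p = 0.14), and Rrm1, the large subunit of ribonucleotide reductase, by -0.51 (adjusted p = 0.041) and -0.18 (adjusted p = 0.54), in the same order of dams. Dut, which removes dUTP, missed the threshold with both (-0.48 and -0.14).

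The 6 subunits of the MCM helicase, which unwinds DNA at the fork, all had negative changes to day 24 in IgA-null dam pups (median -0.52), and Mcm6 alone passed. Its values with the IgA-null dam were 22.9, 27.7 and 25.6 scaled TPM at day 14, 11.6, 16.7 and 18.9 at day 24 and 18.6, 20.9 and 21.9 at day 42. Those with the B6 dam were 30.8, 24.8 and 34.0 at day 14, 27.7 and 15.9 at day 24 and 14.98, 21.1 and 19.1 at day 42. The B6 dam libraries of day 24 were far apart, replicate 1 within the range of day 14 and replicate 2 below it. The change was -0.68 (SE 0.21, adjusted p = 0.041) with the IgA-null dam and -0.48 (SE 0.23, adjusted p = 0.21) with the B6 dam. Gins2, a subunit that activates the helicase, went down by 0.51 (adjusted p = 0.038) with the IgA-null dam and had the smallest p of the S phase members with the B6 dam (-0.48, adjusted p = 0.082). Uhrf1, which carries DNA methylation through replication, was at -0.82 (adjusted p = 0.034) and -0.60 (adjusted p = 0.17).

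Pcna, the sliding clamp of the replication fork, passed in no comparison between ages. Its level with the B6 dam was 20.5, 19.8 and 23.4 scaled TPM at day 14, 21.9 and 16.4 at day 24 and 12.9, 16.8 and 15.1 at day 42. Its level with the IgA-null dam was 12.8, 15.8 and 15.8 at day 14, 8.55, 15.8 and 15.1 at day 24 and 15.4, 17.7 and 15.8 at day 42. With the B6 dam day 14 lay above day 42 and day 24 overlapped both, while with the IgA-null dam the ages overlapped. The change from day 14 to 42 with the B6 dam was -0.49 (-0.90 to -0.07, adjusted p = 0.12). The change to day 24 was -0.15 (95% interval -0.61 to 0.31, adjusted p = 0.70) with the B6 dam and -0.20 (-0.61 to 0.22, adjusted p = 0.50) with the IgA-null dam.

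Of the 3 G1 members, Ccnd2 moved and Ccnd1 and Cdk4 did not pass. Ccnd2 and Ccnd1 encode D-type cyclins, which activate Cdk4 to carry cells out of G1. In IgA-null dam pups Ccnd2 stood at 21.3, 27.6 and 24.6 scaled TPM at day 14, 9.30, 11.3 and 13.9 at day 24 and 22.3, 19.0 and 20.8 at day 42. In B6 dam pups the values were 25.0, 25.5 and 31.0 at day 14, 19.5 and 13.7 at day 24 and 17.3, 19.7 and 16.9 at day 42. All IgA-null dam libraries of day 24 were below those of the other ages. The fall to day 24 was -1.04 (SE 0.16, adjusted p = 0.001) there and -0.69 (SE 0.18, adjusted p = 0.019) with the B6 dam. Ccnd1 stood at 7.24, 5.81 and 8.79 at day 14, 13.8 and 7.89 at day 24 and 7.59, 10.7 and 9.99 at day 42 scaled TPM with the B6 dam. In IgA-null dam pups it stood at 6.69, 7.46 and 6.83 at day 14, 6.37, 11.2 and 10.6 at day 24 and 9.15, 11.0 and 11.3 at day 42. Its change to day 24 was 0.49 (adjusted p = 0.22) with the B6 dam and 0.35 (adjusted p = 0.29) with the IgA-null dam.

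**Figure D3:**
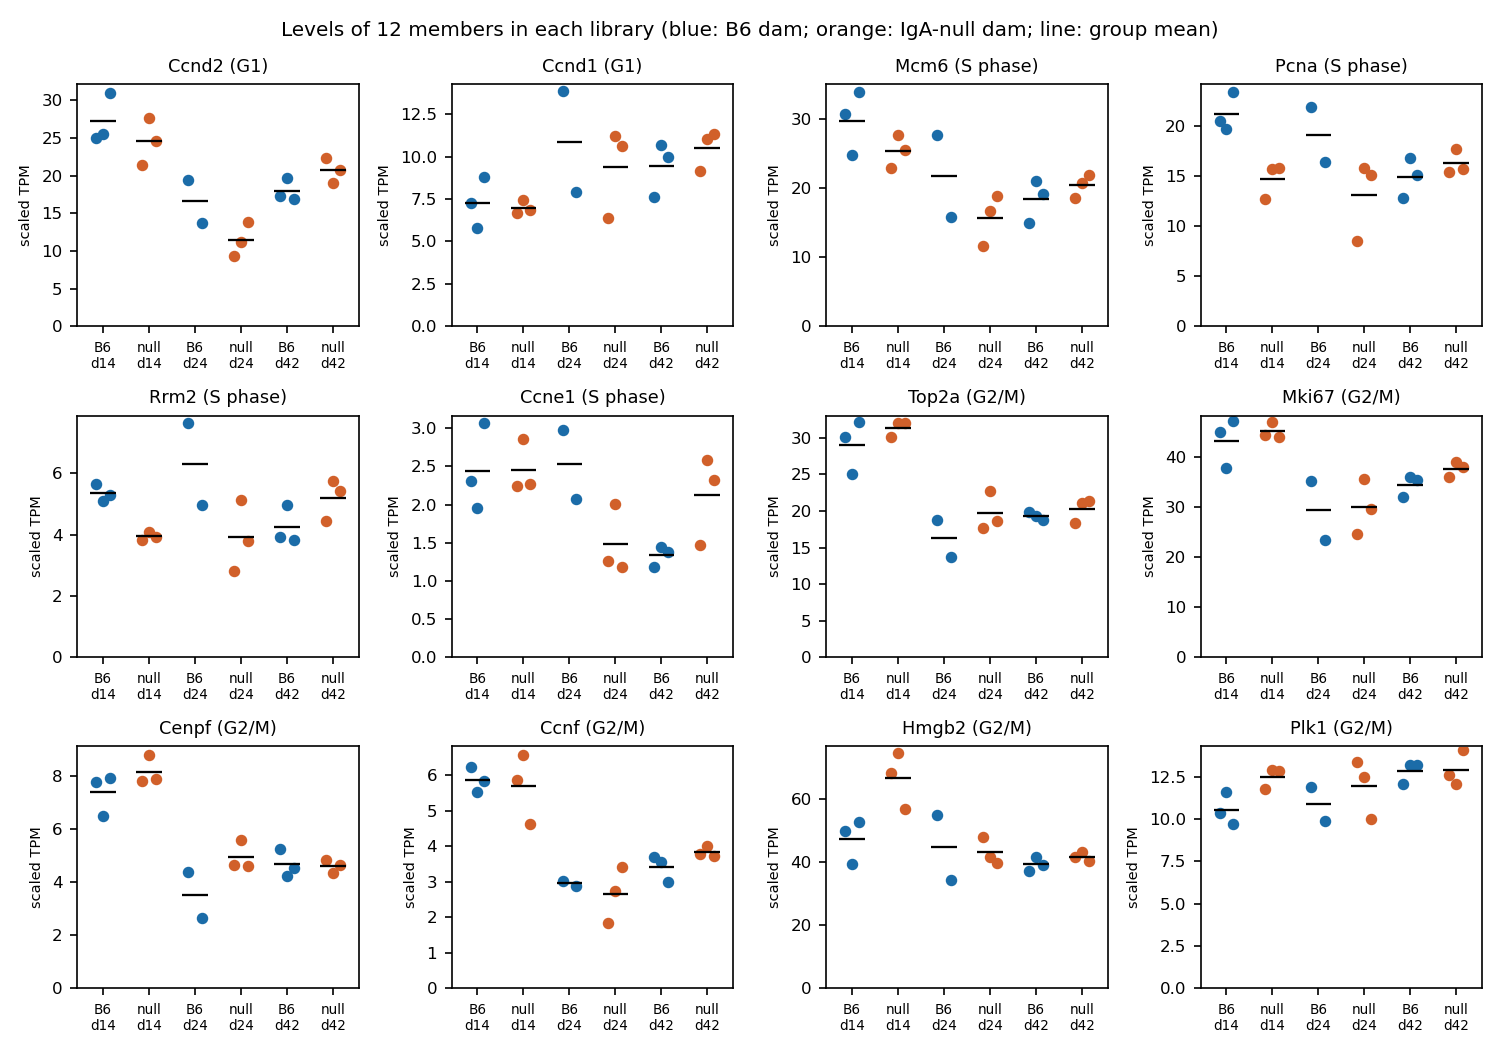
Scaled TPM of 12 members in each library (points) with group means (lines), by dam and day. For Top2a the 6 libraries of day 14 lie between 25.0 and 32.1, above all 11 later ones, while for Pcna days 14 and 24 overlap with either dam.

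Of the 50 members, 23 passed in at least 1 comparison between ages and 27 in none. The 12 S phase members among the 27 were Pcna, Mcm2, Mcm3, Mcm4, Mcm5, Mcm7, Cdc6 (an origin licensing factor), Rrm2, Dut, Fen1, Lig1 and Ccne2. The 12 G2/M members were the A and B cyclins Ccna2, Ccnb1 and Ccnb2, the Cdk1-activating phosphatase Cdc25c, the kinases Plk1 and Aurka, Cdc20 and Ube2c of the anaphase-promoting machinery, Birc5 of the chromosomal passenger complex, the midzone motors Kif20a and Kif23, and Cdkn3. Ccnd1, Cdk4 and Stmn1 complete the list. From day 14 to 24 with the B6 dam the log2 fold changes of the 27 ran from -0.55 (Ube2c) to 0.49 (Ccnd1), with a median of -0.21. In IgA-null dam pups they ran from -0.56 (Mcm4) to 0.35 (Ccnd1), with a median of -0.39, so most leaned the same way as the members that passed.

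After day 24 few members moved further. With the B6 dam no member passed the test from day 24 to 42, where 0.0265% of all genes did; 4 members had an unadjusted p under 0.05 by limma, and limma-voom on recovered reads called 0 of 46. Ccnd2 rose with the IgA-null dam by 0.81 (log2, SE 0.16, adjusted p = 0.023), as 1.45% of all genes rose, and both ages carry the same date. That call was lost without day 24 replicate 1 and without day 42 replicate 1 or 3, and without day 24 replicate 2 the count was 3. In B6 dam pups the S phase median was -0.24 (-0.07 as deposited) and the G2/M median 0.10, and in IgA-null dam pups they were 0.30 and 0.16.

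Over the whole span from day 14 to 42, which shares its day 14 libraries with the comparison above, 14 members were lower with the B6 dam, against 6.6% of all genes. They were 6 S phase members (Gins2, Uhrf1, Tyms, Ccne1, Cdt1 and Mcm6), 7 G2/M members (Ccnf, Top2a, Cenpf, Nusap1, Bub1b, Cdk1 and Kif11) and Ccnd2. Ccne1 is the cyclin that starts S phase, and Cdt1 loads the helicase onto origins. For the IgA-null dam 8 were lower, against 8.09% of all genes, and all were G2/M members: Cenpf, Bub1b, Top2a, Hmgb2, Nusap1, Tpx2, Aurkb and Ccnf. The changes of Top2a were -0.56 (adjusted p = 0.01) with the B6 dam and -0.61 (adjusted p = 0.0068) with the IgA-null dam. Those of Uhrf1 were -0.90 (adjusted p = 0.024) and -0.43 (adjusted p = 0.24), and those of Cdt1 -0.71 (adjusted p = 0.047) and -0.17 (adjusted p = 0.63). No member was higher at day 42 with either dam, where 7.04% (B6) and 8.4% (IgA-null) of all genes were.

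Many of these calls were near the threshold. The count with the B6 dam was 3 without day 14 replicate 1, day 14 replicate 3 or day 42 replicate 3, 5 without day 42 replicate 1 and 7 without day 42 replicate 2, and it was 7 or 8 without each IgA-null dam library of day 14 or day 42. The IgA-null dam count was 3 without day 14 replicate 2, day 42 replicate 1 or day 42 replicate 3, 4 without day 14 replicate 1 and 5 without day 42 replicate 2. It was 14 without either B6 dam library of day 24 and 13 without IgA-null dam day 24 replicate 2. Top2a and Cenpf kept their calls with both dams whichever library was left out.

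Between the dams no member passed at any age. At day 14, where 2.97% of all genes passed, 3 of 50 members had an unadjusted p under 0.05 by limma, and limma-voom called 0 of 46 (4 unadjusted). A single member passed when replicate 2 of the B6 dam at day 24, or replicate 1 of the IgA-null dam at that age, was left out. At day 24, where 0% of all genes passed, the unadjusted count was 10 by limma and 10 by limma-voom, with no calls. At day 42, again with 0% of all genes, these counts were 1 and 2. Over all genes tested the unadjusted counts were 2913 of 15066 at day 14, 1519 at day 24 and 242 at day 42 by limma.

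The smallest p at day 14 was that of Hmgb2. It stood at 49.8, 39.4 and 52.6 scaled TPM with the B6 dam and 68.2, 74.7 and 56.8 with the IgA-null dam, so the groups did not overlap. The difference, IgA-null dam minus B6 dam, was 0.49 (log2, 95% interval 0.14 to 0.84, adjusted p = 0.11). At later ages its values were 54.8 and 34.5 against 48.0, 41.7 and 39.9 at day 24, and 37.3, 41.5 and 39.1 against 41.6, 43.2 and 40.3 at day 42, and the dams overlapped. Pcna, whose values are given above, was lower in each IgA-null dam library of day 14 than in each B6 dam library, with a difference of -0.50 (-0.91 to -0.09, adjusted p = 0.17).

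At day 24 all 20 S phase members had negative differences between the dams, with a median of -0.40, while 14 of 26 G2/M members were above 0, with a median of 0.01 and a median over all genes of -0.03. As deposited all 26 G2/M members were below 0 as well, at a median of -0.46 with a median over all genes of -0.38. The S phase median minus the G2/M median was -0.41, and -0.27 without B6 dam day 24 replicate 1. The mean log2(scaled TPM + 1) of the S phase members was 3.33 in that library. In B6 dam day 24 replicate 2 it was 2.73, within the 2.51 to 2.78 of the IgA-null dam libraries. The mean of the G2/M members in replicate 2 was 2.61, below the 2.63 to 3.06 of the IgA-null dam libraries. Rrm2, the small subunit of ribonucleotide reductase, had the smallest p. It stood at 7.64 and 4.96 scaled TPM with the B6 dam and 2.81, 5.12 and 3.79 with the IgA-null dam, which overlapped. Its difference was -0.57 (-0.98 to -0.17, adjusted p = 0.35), with -0.63 (adjusted p = 0.42) for Mcm4 and -0.51 (adjusted p = 0.42) for Ccne1. At day 14 Rrm2 was at 5.65, 5.08 and 5.29 with the B6 dam and 3.82, 4.08 and 3.94 with the IgA-null dam, and at day 42 it was at 3.93, 4.96 and 3.84 and 4.43, 5.73 and 5.43. Cenpf leaned the other way at day 24, at 0.42 (adjusted p = 0.39). At day 42 the S phase median was 0.18, with 19 of 20 above 0, and the G2/M median was 0.04.

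Whether the difference between dams itself changed with age was tested by a moderated F test, which called 0.139% of all genes and no member. The smallest adjusted p was 0.33 for Ccne1, followed by 0.36 for Rrm2. In this test 5 of 50 members and 1533 of 15066 genes had an unadjusted p under 0.05, and limma-voom called 0 of 46, with 6 at an unadjusted p under 0.05.

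**Figure D4:**
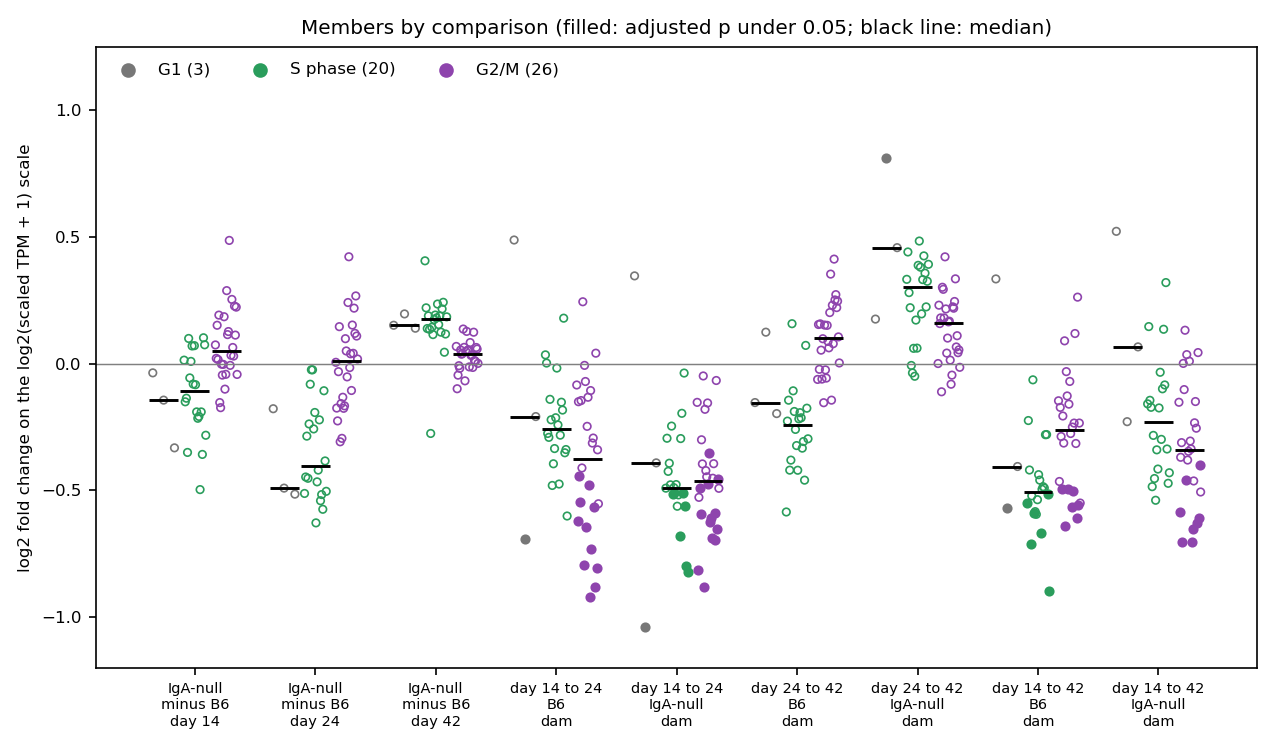
Log2 fold change of each G1, S phase and G2/M member in each comparison, coloured by class, with filled points for adjusted p under 0.05 and black lines at the class medians. Stmn1 is not drawn. Filled points lie below 0 in the comparisons with day 14, and Ccnd2 from day 24 to 42 with the IgA-null dam is the only one above.

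The balance of S phase and G2/M members was compared within each library, as the mean log2(scaled TPM + 1) of the 20 S phase members minus that of the 26 G2/M members. The B6 dam libraries were at 0.0098, 0.0634 and 0.209 at day 14, 0.359 and 0.121 at day 24, and -0.417, 0.0984 and -0.035 at day 42. The IgA-null dam libraries were at -0.212, -0.0423 and -0.0519 at day 14, -0.115, -0.284 and 0.0769 at day 24, and -0.0889, 0.0335 and 0.0743 at day 42. All B6 dam libraries were above all IgA-null dam libraries at day 14 and at day 24, and the dams overlapped at day 42. The group means were 0.0941 ± 0.103 (SD, n = 3) against -0.102 ± 0.0951 (SD, n = 3) at day 14, 0.240 ± 0.168 (SD, n = 2) against -0.107 ± 0.181 (SD, n = 3) at day 24, and -0.118 ± 0.268 (SD, n = 3) against 0.00632 ± 0.0849 (SD, n = 3) at day 42. Because the members were chosen with results known, no p is given for these scores.

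The same balance as a ratio of summed TPM, which scaling between libraries cannot change, was 0.817 ± 0.0699 (SD, n = 3) with the B6 dam and 0.664 ± 0.0587 (SD, n = 3) with the IgA-null dam at day 14. It was 0.870 ± 0.123 (SD, n = 2) and 0.666 ± 0.103 (SD, n = 3) at day 24, where the nearest libraries of the dams were at 0.783 and 0.781, and 0.669 ± 0.126 (SD, n = 3) and 0.724 ± 0.0511 (SD, n = 3) at day 42. Scaling did change the size of each class's moves between ages, while their direction was the same in the sums that follow. As deposited, the G2/M members of the IgA-null dam summed to 519 ± 43.2 TPM (SD, n = 3) at day 14, 129 ± 27.1 at day 24 and 253 ± 10.7 at day 42, and after scaling to 319 ± 15.9, 223 ± 33.2 and 242 ± 7.46. The S phase members went from 344 ± 42.7 to 84.0 ± 8.39 and 183 ± 8.37 as deposited, and from 212 ± 22.1 to 147 ± 15.9 and 175 ± 16.4 after scaling. As deposited, all 50 members were lower at day 24 than at day 14 with the IgA-null dam, but so were 82.9% of all genes, with a median over all genes of -1.02 in place of -0.02. Likewise 45 members were then higher at day 42 than at day 24 with that dam (48.5% of all genes) and 37 lower than at day 14 (38.9%). For the B6 dam 6 were lower at day 42 than at day 14 (6.33%), and 2 were higher with the IgA-null than the B6 dam at day 14 (8.32%).

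Individual libraries stood apart in the phase means. The S phase mean of B6 dam day 24 replicate 1 was 3.33, within the 3.10 to 3.45 of the B6 dam at day 14, while that of replicate 2 was 2.73. Their G2/M means were 2.97 and 2.61, both below the 3.04 to 3.25 of day 14. B6 dam day 42 replicate 1 had an S phase mean of 2.54 against 2.95 and 2.85 in the other two, and a G2/M mean of 2.95 against 2.85 and 2.89. IgA-null dam day 24 replicate 2 had a G2/M mean of 3.06 against 2.63 and 2.70 in the other two. The same library had the highest summed erythroid markers, 66.7 scaled TPM, and their part in its phase means was not tested. Summed scaled TPM of 17 enterocyte markers ran from 1471 to 13607 in the B6 dam libraries of day 24 and from 819 to 6293 in those of day 42, and its part in the phase means was not tested.

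**Figure D5:**
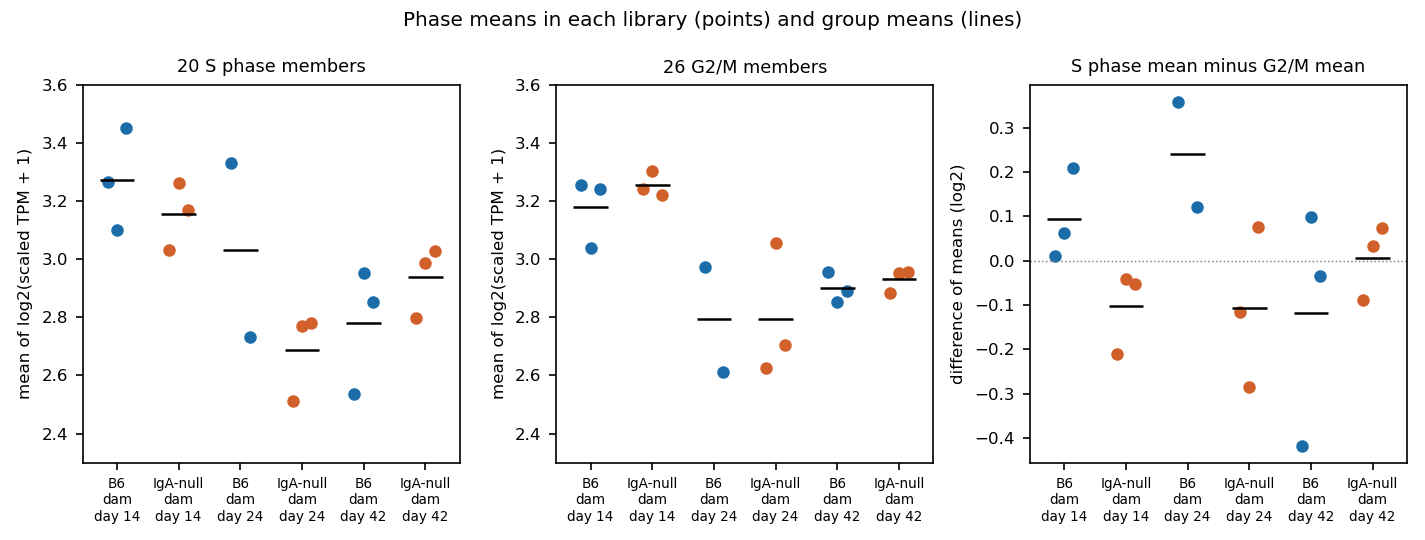
Mean log2(scaled TPM + 1) of the S phase and G2/M members and their difference in each library (points) with group means (lines). The difference is above that of every IgA-null dam library of the same day in all B6 dam libraries of days 14 and 24, and the dams overlap at day 42.

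Among other genes of the same processes, listed without the members, falls outnumbered rises in the comparisons with day 14. From day 14 to 24, 5.91% of all genes were lower and 7.93% higher with the B6 dam. The IgA-null dam shares were 8.28% and 8.35%. Of 29 further S phase genes, none passed from day 14 to 24 with the B6 dam and 11 were lower with the IgA-null dam, with medians of -0.27 and -0.46. They include Tipin (-1.01, adjusted p = 0.0043) and Clspn (-0.87, adjusted p = 0.014), which guard stalled forks. Of 34 further G2/M genes, 7 were lower and 1 higher with the B6 dam, and 13 lower and 1 higher with the IgA-null dam, with medians of -0.29 and -0.36. Hjurp, the chaperone that deposits Cenpa, was at -0.72 (adjusted p = 0.001) and -0.73 (adjusted p = 0.00056), and the riser was Jpt1. From day 14 to 42, 4 S phase and 7 G2/M genes of these lists were lower with the B6 dam, and 4 and 5 with the IgA-null dam, where 1 G2/M gene was higher. Over that span 6.6% of all genes were lower with the B6 dam. For the IgA-null dam 8.09% were lower and 8.4% higher. Between the dams at day 14, 1 of the 34 further G2/M genes was higher with the IgA-null dam (limma, adjusted p = 0.02). None of the 29 further S phase genes passed there, where 2.97% of all genes did.

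Among 33 regulators of the cycle, 5 fell and 2 rose from day 14 to 24 with the B6 dam, and 9 fell and 2 rose with the IgA-null dam. Of all genes 5.91% fell and 7.93% rose with the B6 dam, and 8.28% fell and 8.35% rose with the IgA-null dam. Mycn, a growth-promoting transcription factor, fell by 2.09 (log2, adjusted p = 2.8e-06) and 1.33 (adjusted p = 9.1e-05) with the respective dams. E2f8, which represses E2F targets late in S phase, was at -0.75 (adjusted p = 0.0041) and -0.73 (adjusted p = 0.0029). Foxm1, an activator of mitotic genes, fell with the IgA-null dam (-0.53, adjusted p = 0.023, lost in 5 of 25 settings) and was at -0.35 (adjusted p = 0.18) with the B6 dam. Rb1, which holds E2F factors in check, rose by 0.68 (adjusted p = 0.039) and 0.65 (adjusted p = 0.027), though the second value was -0.54 as deposited. The Rb1 calls were lost in 10 and 6 of 25 other settings. Cdkn1a, the CDK inhibitor p21, rose with the B6 dam (1.14, adjusted p = 0.027) and was at 0.33 (adjusted p = 0.43) with the IgA-null dam, and its call was lost in 7 of 24 settings. Cdkn1c, another CDK inhibitor, was the only one of the 33 regulators called between the dams at day 14, where 2.97% of all genes passed. It was at -1.36 (limma, IgA-null dam minus B6 dam, adjusted p = 0.04996). That call was lost in 16 of 25 other settings, among them the replicate block, no filter and 12 single libraries left out.

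Of the 16 stem cell markers, 2 were lower and 1 higher from day 14 to 24 with the B6 dam. Among all genes 5.91% were lower and 7.93% higher. With the IgA-null dam 1 was lower and 2 were higher, against 8.28% and 8.35% of all genes. Summed scaled TPM of these markers was 649 to 999, 564 to 1104 and 805 to 964 with the B6 dam at days 14, 24 and 42. For the IgA-null dam the sums were 556 to 652, 673 to 794 and 995 to 1086, rising without overlap. The median log2 fold change of the 16 markers to day 24 was -0.35 with the B6 dam, beside -0.29 for the 50 members. It was -0.05 with the IgA-null dam, beside -0.48. These differences from the members were not tested. Lgr5, the receptor that marks crypt base stem cells, was at -1.04 (adjusted p = 0.006) and -0.43 (adjusted p = 0.14). Markers of other epithelial cell types moved over the same interval. With the B6 dam 5 of 8 goblet, 6 of 8 enteroendocrine and 5 of 5 tested tuft cell markers were higher at day 24 and none lower, with median log2 fold changes of 1.27, 1.37 and 1.57. With the IgA-null dam no goblet or tuft marker passed, and 4 of 8 enteroendocrine markers were lower, at a median of -0.90. Summed leukocyte markers, given above, were higher at the later ages, when the members were lower, and their part in the members' values was not tested. At day 14 the S phase and G2/M balance did not overlap between the dams. There 7 of 8 goblet and 8 of 8 enteroendocrine markers were higher with the IgA-null dam, as were 272 of 15066 genes tested. So were 1 of 8 Paneth and 2 of 5 tested tuft cell markers. No enterocyte marker was called, and 14 of 17 were below 0. Summed scaled TPM was 1476 to 2318 against 424 to 686 for goblet markers, and 582 to 664 against 99.1 to 139.8 for enteroendocrine markers. The balance did not overlap at day 24 either, but no goblet or enteroendocrine marker was called there, where 0% of all genes passed. Goblet markers then had a median difference (IgA-null dam minus B6 dam) of 0.54, with 6 of 8 above 0. Enteroendocrine markers leaned the other way than at day 14, with a median of -1.01 and 8 of 8 below 0. Paneth cell markers leaned the same way at both ages, 8 of 8 above 0, with medians of 0.91 at day 14 and 2.35 at day 24. Their summed scaled TPM (IgA-null dam against B6 dam) was 1594 to 2472 against 1054 to 1710 at day 14, which overlapped. At day 24 it was 2735 to 6743 against 601 to 995, though no Paneth marker was called there. The part of these cell types in the members' values was not tested at either age.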

How the data were processed

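RNA of 17 libraries was made with the SMART-seq v4 and Nextera XT kits, per the labels' protocols. The authors deposited TPM values, whose columns each sum to the same total with no scaling between libraries. The submitters' processing notes name Bowtie2, Subread, DESeq2 and the build mm10, with no versions. Their settings are not given in the sources used here.

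From the deposited TPM, size factors were computed as medians of ratios over 16088 genes above 0 in every library. Genes reaching a TPM of 1 in 2 or more libraries were tested with limma 3.58.1 (R 4.3.3, intensity trend) on log2(TPM divided by size factor, plus a pseudocount of 1), in 1 fit of all 17 libraries. Calls had a Benjamini-Hochberg adjusted p under 0.05 over all 15066 genes. Fold changes are on this log2 scale, which understates changes of low genes. The groups are the 6 combinations of dam and day in the titles, and the 9 comparisons share libraries, so they are not independent.

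Multiplying TPM by exon length (GENCODE M21) gave whole reads, within 0.01 reads or a relative 1e-04, for 93.6% of values. Among values under 100 reads the share was 95.3%, and it was 1.89% with shuffled lengths. Only genes whose values were all whole were used (47584 symbols, 46 of 50 members, without Ccnf, Cdc25c, Kif11 and Kif20a). These reads gave the depth over those symbols, which is not that of the whole library, and limma-voom's input. Few reads mean a wide error for low genes.

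The alternatives were values as deposited, quantile normalisation, pseudocounts of 0.1 and 5, no filter, TPM of at least 5, a replicate block, limma-voom, each library left out, and the phase of published single-cell scoring lists. The members, gene lists and tests were chosen with earlier results of these data known. Values in every library were given for Mki67, Pcna, Ccnd1, Ccnd2 and members with small p in a comparison. The limma fit was tested on simulated data. Promoters come from RefSeq (GRCm38.p6). Python 3.11.15, numpy 2.4.6, pandas 2.3.3 and matplotlib 3.10.9 were used.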

Additional observations from a re-analysis of the deposited data

How the results depend on the processing

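The number of members called changed by over 1.5 times under these settings. As deposited it was 2 for the dams at day 14, and from day 14 to 24, 24 to 42 and 14 to 42 with the IgA-null dam it was 50, 45 and 37. From day 14 to 42 with the B6 dam it was 6 as deposited, 7 after quantile normalisation and 3 without a filter. Leaving out single libraries gave 0 to 1 for the dams at day 14, 3 to 20 (B6 dam) and 10 to 26 (IgA-null dam) from day 14 to 24, 0 to 1 and 0 to 3 from day 24 to 42, and 3 to 20 and 3 to 14 from day 14 to 42. The S phase minus G2/M median for the dams at day 24 was -0.21 with a pseudocount of 5, and that from day 14 to 24 with the B6 dam ran from -0.010 to 0.30 over libraries left out. The cause of these changes was not tested, except that the values as deposited carry the shift of all genes.

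Replicate numbers did not pair the samples. Over 40 pairs of same-numbered libraries the correlation ran from -0.64 to 0.27, with 9 over 0.1, and 2 of 17 libraries correlated best with their own number. With the replicate block 8 members were called from day 14 to 42 with the B6 dam, and no other count moved by over 1.5 times.

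Of 69 called results for named genes, 14 missed the threshold and 1 reversed as deposited, 8 missed it after quantile normalisation, 28 without a filter, 6 with a pseudocount of 0.1, 1 with 5 and 19 with the block. By limma-voom 1 of 61 missed it. Signs reversed as deposited for Cdt1 (0.065), Mcm7 (0.23), Rrm1 (0.21), Rrm2 (0.020) and Uhrf1 (0.16) between the dams at day 14, for Cenpe (-0.25), Cenpf (-0.061) and Top2a (-0.28) at day 24, for Plk1 (-0.38) from day 14 to 24 with the B6 dam, and for Ccnd1 (-0.98), Cdkn1a (-1.001) and Rb1 (-0.54) with the IgA-null dam. Plk1 was at -0.12 after quantile normalisation with the B6 dam. Signs of uncalled members also reversed without single libraries, whose removal gave ranges. From day 14 to 24 with the B6 dam these ran from -0.12 to 0.11 for Cdc20, -0.34 to 0.073 for Cenpa, -0.49 to 0.21 for Dut, -0.43 to 0.22 for Hmgb2, -0.35 to 0.048 for Pcna, -0.080 to 0.16 for Plk1 and -0.48 to 0.12 for Rrm1. For the IgA-null dam they ran from -0.34 to 0.067 for Pcna and -0.15 to 0.050 for Plk1. Between the dams at day 42 the range was -0.22 to 0.035 for Aurkb.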
